A study of Mus musculus with 2 samples.

Results

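The tripartite motif (TRIM) family was described in skeletal muscle from total RNA-seq of gastrocnemius, a fast-twitch calf muscle. The samples were 2 female B6CASTF1/J mice, the F1 hybrids of a C57BL/6 and a CAST parent, taken at an age of 2 months, here called animal 1 and animal 2. All samples belonged to 1 group, with no treatment, mutation or second tissue, so the only comparison is between the animals. Members were the genes whose symbol is Trim followed by a digit and that have at least 1 transcript annotated as protein-coding, which gave 68 of 55536 genes. The choice used the name and the annotation and no measured value.

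TRIM proteins share an N-terminal module of a RING finger, 1 or more B-boxes and a coiled coil, and most of them act as E3 ubiquitin ligases, the enzymes that choose which proteins are tagged with ubiquitin. Their C-terminal domains differ and decide what they bind, which gives the classes used below. In striated muscle the family is best known for the muscle RING finger proteins MuRF1 (Trim63), MuRF2 (Trim55) and MuRF3 (Trim54), which sit on the sarcomere and microtubules, and for MG53 (Trim72), which helps to seal torn plasma membrane. Other members are known for transcriptional repression in the nucleus or for antiviral defence.

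The promoters of the leading pair of MuRF genes are shown first, because Trim54 and Trim63 had the highest levels in the family. Each line gives the 250 bases before the RefSeq start (GRCm38.p6, plus strand) of Trim63 at chr4:134314870-134315119 and of Trim54 at chr5:31116362-31116611. Capitals mark matches, on either strand, to the E-box CANNTG of myogenic bHLH factors and to the MCAT motif CATTCC of TEAD factors. The core GTAAACA of FOXO factors and the TATA box, searched as TATAAA, are marked likewise; no marked matches overlap.
Trim63: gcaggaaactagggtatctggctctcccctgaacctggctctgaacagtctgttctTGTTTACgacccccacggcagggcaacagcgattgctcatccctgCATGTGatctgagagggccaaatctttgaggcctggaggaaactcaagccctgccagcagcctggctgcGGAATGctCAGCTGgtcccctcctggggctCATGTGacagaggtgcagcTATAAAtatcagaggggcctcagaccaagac
Trim54: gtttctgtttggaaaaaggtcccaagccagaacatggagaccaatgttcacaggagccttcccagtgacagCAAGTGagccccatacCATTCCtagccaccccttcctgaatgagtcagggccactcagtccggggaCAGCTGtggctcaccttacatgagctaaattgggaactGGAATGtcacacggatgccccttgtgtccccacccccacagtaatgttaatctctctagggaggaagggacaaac
The Trim63 window held 3 E-boxes, with first bases at -149, -72 and -50 from the start, an MCAT match at -80, a FOXO core match at -194 and a TATA match at -31. The most abundant Trim63 transcript began at that RefSeq start. In the Trim54 window there were E-boxes at -179 and -113 and MCAT matches at -163 and -75, and its most abundant transcript began 100 bases downstream of the RefSeq start. Over all 32851 promoters of 300 bases (250 before and 50 after a start), 72.3% held an E-box, 14.7% an MCAT match, 13.6% a TATA match and 3.65% a FOXO core. Among the 67 promoter entries of 53 members, 2 held a FOXO core, those of Trim63 and Trim67. An E-box is therefore common background, and each match is a description of letters, not a measured binding site.

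A short second set shows the interferon-stimulated response element core (ISRE core, GAAANNGAAA, either strand) in members of the interferon-linked class on chromosome 7, whose levels are given further on. Each line is 30 bases in the gene's 5′ to 3′ direction with the core in capitals, for Trim21 at chr7:102565450-102565479 (minus strand), Trim34a at chr7:104244457-104244486 (plus), Trim12a at chr7:104315466-104315495 (minus), Trim12c at chr7:104353359-104353388 (minus) and Trim30a at chr7:104465210-104465239 (minus).
Trim21: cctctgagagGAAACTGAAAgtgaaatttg
Trim34a: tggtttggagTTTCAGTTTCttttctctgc
Trim12a: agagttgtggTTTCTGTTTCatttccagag
Trim12c: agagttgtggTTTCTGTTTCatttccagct
Trim30a: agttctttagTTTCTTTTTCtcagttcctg
The Trim5 window is letter for letter that of Trim12a, and the Trim30d window that of Trim30a. These are tandem duplicates that share sequence, so they are not independent examples. The core was in 8 of 13 promoter entries of the class (7 of 12 members), in 2 of 54 entries of the other members, and in 3.44% of all promoters. It began 49 bases before the start in Trim5 and 36 before it in Trim30a, but 14 bases after the start in Trim21 and 11 after it in Trim34a and Trim12a.

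The libraries held 45014834 expected counts over genes for animal 1 and 47771283 for animal 2. Levels are in TPM, a relative abundance that is corrected for transcript length and scaled to a fixed total per library, so it can be compared between genes. Fast fibre markers summed to 49370 TPM in animal 1 and 47145 TPM in animal 2, so the tissue label and the markers matched. Markers of other fibres and cells differed between the libraries. Slow fibre markers summed to 854 and 3586 TPM, and all 7 were over 2-fold higher in animal 2. Adipocyte markers summed to 772 and 99.6 TPM, all 7 over 2-fold higher in animal 1, and Schwann cell markers to 245 and 33.0 TPM, with all 5 tested over 2-fold higher in animal 1. Lymphocyte markers were near 0 in both (sums of 0.06 and 0.09 TPM; Cd3g, Cd8a and Nkg7 at 0 reads). In whole tissue, fewer cells of a type and less RNA per cell cannot be told apart.

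The family was a small share of the muscle transcriptome and was led by very few genes. Its 68 genes summed to 574 TPM in animal 1 and 570 TPM in animal 2, or 572 ± 3.40 TPM (SD, n = 2), which was 0.127 ± 0.00109% of the TPM of all protein-coding genes. The MuRF genes alone held 48.6% and 48.8% of the family's TPM, and with Trim72 added the share was 63.5 ± 0.305%. By count of genes, 30 of 68 members (44.1%) reached 1 TPM in both animals. The background share for 22028 protein-coding genes was 46.5%, so the number of detected members was near that of genes at large. A further pair, Trim2 and Trim12c, passed in animal 1 only, and 36 members passed in neither. The median of the detected members was 6.27 TPM, beside 7.75 TPM for all protein-coding genes detected the same way.

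**Figure D1:**
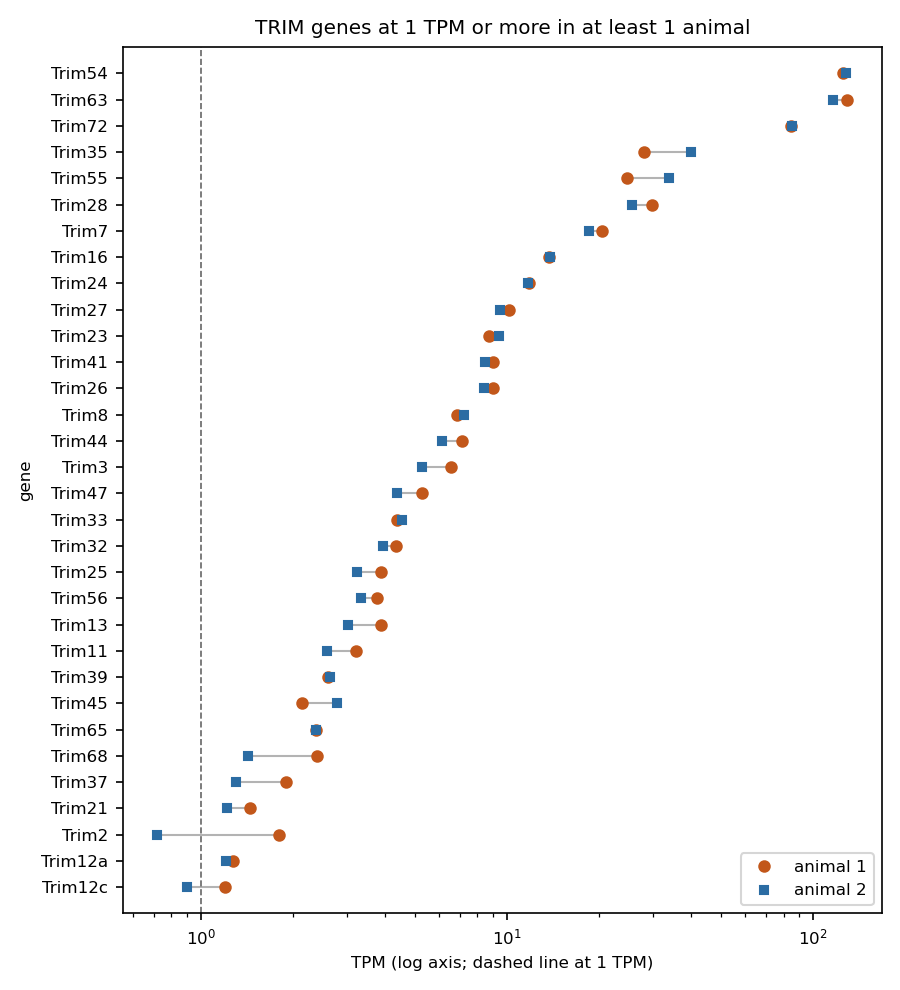
TPM (x axis, log scale) of the 32 TRIM genes at 1 TPM or more in at least 1 animal, with a circle for animal 1 and a square for animal 2. Trim54 and Trim63 lie above 100 TPM and Trim72 near 85 TPM, the next gene is below 40 TPM, and Trim2 shows the widest gap between the animals.

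The MuRF genes were the most abundant class, and 2 of the 3 differed by less than the spread between the animals. Trim63 (MuRF1; chr4:134315120-134329629, plus strand, mm10), a ligase of thick-filament proteins that marks muscle wasting, had 129 TPM in animal 1 and 116 TPM in animal 2 from 8489 and 8154 reads, 123 ± 9.20 TPM. Trim54 (MuRF3; chr5:31116712-31137630, plus strand), which binds and stabilises microtubules, had 125 and 128 TPM (6289 and 6830 reads), 126 ± 1.83 TPM. Their ranges overlapped, and Trim54 ranked 403 and Trim63 410 among all protein-coding genes. Trim55 (MuRF2; chr3:19644474-19692421, plus strand), which links titin to nuclear signalling, had 24.7 and 33.7 TPM (1930 and 2732 reads), 29.2 ± 6.39 TPM, below both paralogues in each animal.

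Ratios within an animal set the order of the paralogues. On the log2(TPM + 0.1) scale, Trim63 over Trim54 was -0.04 ± 0.13 (SD, n = 2), a difference under 2 SD of the spread between animals and of opposite sign in the animals. In the kallisto-layout table of the same libraries it was -0.07 in animal 1 and -0.27 in animal 2, negative in both, with a mean of -0.17 ± 0.15 that is also under 2 SD. Trim63 over Trim55 was 2.09 ± 0.42, or 4.24-fold, and Trim54 over Trim55 was 2.13 ± 0.30, or 4.37-fold. Both were larger than 2 SD of the spread with 1 sign in both animals. With n = 2 the smallest p that an exact permutation test allows is 0.5, so these are given as values and spreads with no test. An antisense gene, Gm15469, overlaps 382 exon bases of Trim54 and had 0.03 and 0.06 TPM.

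Trim72 came next, with TPM values close together in the animals. Trim72 (MG53; chr7:128003949-128011033, plus strand), the muscle-restricted protein that nucleates membrane repair, had 84.4 TPM in animal 1 and 85.2 TPM in animal 2 from 6462 and 6922 reads, 84.8 ± 0.566 TPM, rank 555 among protein-coding genes. Its level stood clear of the MuRF pair above and of every member below. Its antisense neighbour Gm15533 shares 617 exon bases and was at 0.01 and 0 TPM. The 12 listed partners of Trim72 in membrane repair were all detected. None was 2-fold apart with TMM scaling of the counts, but Myof (5.04 TPM in animal 1, 2.29 TPM in animal 2) was with DESeq2 size factors, and Myof and Anxa1 (14.5 and 6.84 TPM) were with library size alone. The most abundant were Bin1, which bends membrane at the T-tubules, with 182 and 198 TPM, the scaffold Ahnak with 97.3 and 77.9 TPM, and the calcium-binding annexin Anxa6 with 80.3 and 66.9 TPM.

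Below Trim72 the remaining PRY-SPRY genes outside the chromosome 7 class ranged from 0 to 33.9 TPM in the mean, and 11 of that class of 25 were detected, Trim72 included. Trim35 (chr14:66297031-66311424, plus strand), a ligase first described as a factor of blood lineage choice, had 28.0 TPM in animal 1 and 39.8 TPM in animal 2 from 3609 and 5580 reads. Trim7 (chr11:48826140-48852209, plus strand), known as a partner of glycogenin, the primer of glycogen synthesis, had 20.4 and 18.6 TPM (1575 and 1503 reads). Trim35 was above Trim55 in each animal (24.7 and 33.7 TPM), though their ranges over the animals overlapped. Trim28 was above this pair in animal 1 and below it in animal 2, so its place is not set by these samples. By gene-level TPM, Trim7 lay below all of them in both animals. Trim28-201, the only coding transcript of Trim28, had 10.2 and 9.47 TPM, less than the gene-level TPM of Trim7. Coding transcripts held 84.8% and 87.9% of the TPM of Trim7.

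Trim27 (chr13:21179445-21194724, plus strand), which acts in endosomal sorting, had 10.2 and 9.46 TPM. Trim41 (chr11:48806404-48817353, minus strand) had 8.99 and 8.47 TPM, and Trim26 (chr17:36837134-36859398, plus strand) had 9.0 and 8.42 TPM. Trim41 and Trim26 had overlapping ranges, and Trim27 lay above both in each animal. The other detected genes of the class, Trim47, Trim25, Trim11, Trim39 and Trim65, had means of 2.38 to 4.82 TPM. Trim41 shares 31 exon bases with Rack1, on the opposite strand, which had 156 and 152 TPM.

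The nuclear class with a PHD finger and a bromodomain was detected in full and made up 7.67% of the family's TPM. Trim28 (KAP1; chr7:12999114-13031035, plus strand), the corepressor recruited by KRAB zinc finger proteins, had 29.7 TPM in animal 1 and 25.6 TPM in animal 2 from 1653 and 1581 reads. Trim24 (TIF1α; chr6:37870811-37966296, plus strand), a cofactor of nuclear receptors, had 11.8 and 11.7 TPM, and Trim33 (TIF1γ), a regulator of SMAD signalling, 4.37 and 4.54 TPM. By gene-level TPM the order Trim28, Trim24, Trim33 was the same in both animals, without overlap. The place of Trim28 rests on its short non-coding transcripts. Trim28-201, its only coding transcript, had 10.2 and 9.47 TPM, below the gene-level TPM of Trim24. Coding transcripts held 86.2% and 83.4% of the TPM of Trim24, so on coding transcripts the order of this pair is not set.

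Members that lack the RING finger, and so the usual ligase module, were split. Trim16 (chr11:62820231-62850808, plus strand), known from the response to damaged lysosomes, had 13.7 and 13.8 TPM. Trim44 (chr2:102300119-102407828, minus strand), which carries a zinc finger typical of deubiquitinating enzymes, had 7.14 and 6.12 TPM. The other 3, Trim14, Trim29 and Trim66, stayed below 1 TPM.

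Of the 4 genes with NHL repeats, Trim32 is the one with a known role in muscle disease: its loss of function causes a limb-girdle muscular dystrophy in humans. Trim32 (chr4:65604986-65616238, plus strand) had 4.32 TPM in animal 1 and 3.94 TPM in animal 2 from 428 and 455 reads, 4.13 ± 0.269 TPM, rank 19 in the family. Trim3, best studied in neurons, was above it with 6.56 and 5.26 TPM. Trim71, a regulator of embryonic stem cells, had 1 read in animal 1 and 0 in animal 2.

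Several single-domain members were detected at modest levels. Trim23 (chr13:104178797-104203372, plus strand), which carries an ARF GTPase domain, had 8.75 and 9.39 TPM. Trim8 (chr19:46501702-46516848, plus strand), a regulator of cytokine signalling, had 6.85 and 7.23 TPM. Trim13, anchored in the endoplasmic reticulum, had 3.86 and 3.03 TPM, Trim45, with a filamin repeat, 2.14 and 2.79 TPM, and Trim37, with a MATH domain, 1.90 and 1.30 TPM. Innate immune regulators outside chromosome 7 were in the same range: Trim25, which ubiquitinates the RNA sensor RIG-I, had 3.87 and 3.24 TPM, and Trim56 had 3.76 and 3.33 TPM.

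The interferon-linked class on chromosome 7 was low throughout. Of its 12 members, 3 were detected and the highest was Trim68, with 2.40 TPM in animal 1 and 1.42 TPM in animal 2. Trim21, the cytosolic antibody receptor, had 1.45 and 1.22 TPM, and Trim12a had 1.27 and 1.21 TPM. Trim12c (1.20 and 0.90 TPM), Trim34a (0.74 and 0.46 TPM), Trim30a, an inhibitor of NF-κB signalling in mouse (0.56 and 0.54 TPM), and Trim5 (0.25 and 0.27 TPM) fell short of 1 TPM in at least 1 animal. The whole class summed to 8.35 and 6.44 TPM, 1.29% of the family. The 10 genes from Trim6 to Trim30d, at chr7:104218793-104507849, gave 4.50 and 3.80 TPM together. Few of their reads were shared between copies. The deposited posterior SD of the count was 0 for Trim6, Trim30b and Trim30c. It was highest for Trim5, at 2.15 and 2.30 on 32.8 and 32.5 reads. Only for Trim34b was it large beside the count, at 1.26 and 1.49 on 1.51 and 2.95 reads.

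Neighbouring members often differed in level. Trim26 was the only detected gene of the 5 at chr17:36837134-36910214, where Trim10 had 1 read in all and Trim15, Trim40 and Trim31 none. On chromosome 11, which holds 11 members, the neighbours Trim41 and Trim7 were both among the 15 highest. Trim75, Trim60 and Trim61, side by side on chromosome 8, had no read, and the Trim43 genes on chromosome 9, known from the early embryo, summed to 0.20 and 0.11 TPM. Chromosome 7 held 16 members, from Trim72 near the top to Trim30b with 1 read.

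The silent end of the family was long: 26 members had a mean below 0.1 TPM. No read was assigned in either animal to 10 genes: Trim15, Trim31, Trim40, Trim42, Trim50, Trim52, Trim58, Trim60, Trim61 and Trim75. In these RSEM-layout tables a count of 0 allows up to 3 counts. On each gene's listed effective length that is 0.0310 to 0.0787 TPM in animal 1 and 0.0291 to 0.0740 TPM in animal 2. It is not a ceiling for transcripts shorter than that length. Deposited upper bounds of TPM were higher for Trim15, Trim40, Trim50, Trim52, Trim61 and Trim75, up to 0.73 and 0.68 TPM for Trim40. For Trim31, Trim42, Trim58 and Trim60 they were not higher. A further 9 members had at most 3 reads in each animal: Trim34b, Trim29, Trim69, Trim10, Trim30b, Trim38, Trim43c, Trim80 and Trim71. Between these and the detected genes lay Trim62, with 0.29 TPM in animal 1 and 0.18 TPM in animal 2, Trim59 with 0.14 and 0.18 TPM, and Trim66 with 0.07 and 0.06 TPM. Genes of the COS box, fibronectin and SPRY class, known from neurons (Trim9, Trim67, Trim36 and Trim46), were between 0.02 and 0.23 TPM in the mean, 0 of 4 detected. Trim10 and Trim58, known from red cell precursors, had at most 1 read although all 5 erythroid markers were detected, with sums of 237 and 305 TPM.

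Differences between the animals were below 2-fold in the members with enough reads. Ratios are animal 1 over animal 2, from counts scaled by the trimmed mean of M values (TMM), for the 31 members with a mean of 100 or more counts. There is 1 library on each side, so no ratio has a replicate check, and the intervals cover counting error only. No member (0 of 31) was 2-fold apart, beside 2.97% of the 10872 genes measured as deeply. Among the 58 members with any read it was 7, each with at most 3.39 reads in 1 animal and 0 in the other, beside 26.8% of the 24628 genes with any read. The members' median log2 ratio was 0.01, beside -0.02 over all those genes, and 16 of 31 members were higher in animal 1, beside 45.2% of all genes. That split moves with the scaling: with spike-in totals as the scale it was 8 of 31 members beside 19.4% of genes, and with library size alone 20 of 31 beside 68.1%. The counting interval left out 0 for 12 members, 5 higher in animal 1 and 7 higher in animal 2, which is 12 of 31 beside 47.8% of all genes.

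**Figure D2:**
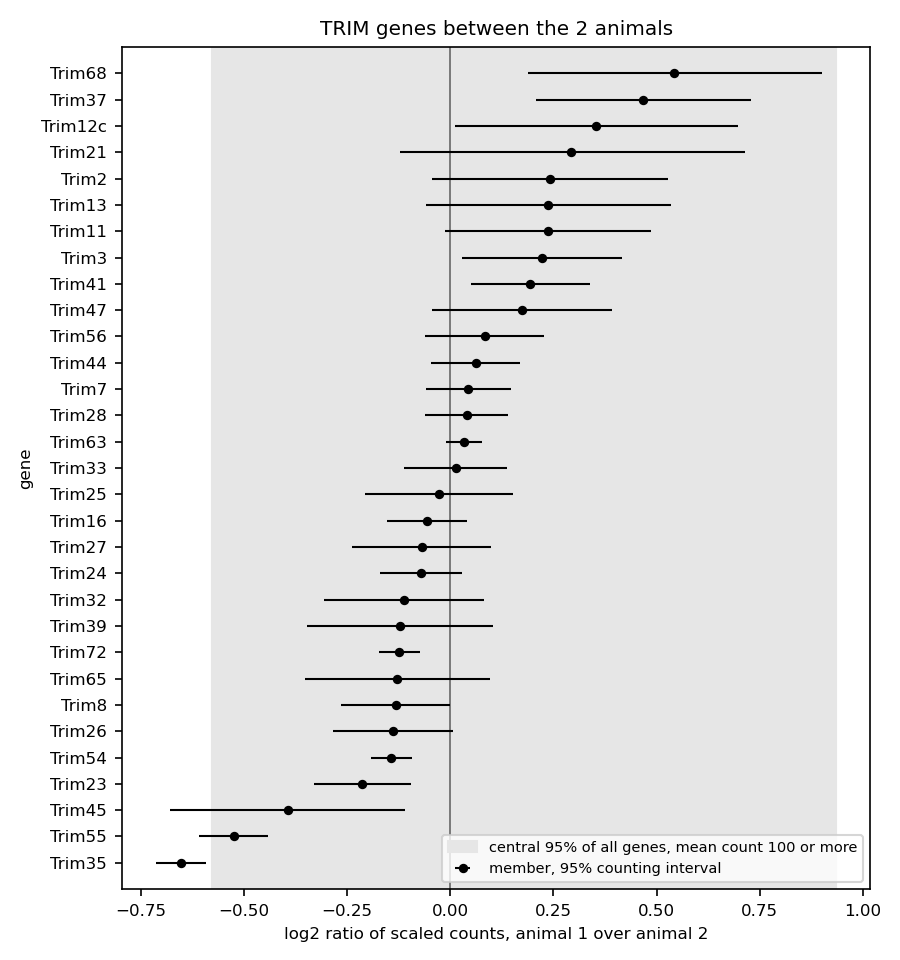
log2 ratio of TMM-scaled counts, animal 1 over animal 2 (x axis), for the 31 TRIM genes with a mean of 100 or more counts; bars are 95% counting intervals and the grey band holds the central 95% of all genes at that depth (-0.58 to 0.94). Trim35 at -0.65 is the only member outside the band.

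The members furthest apart towards animal 2 were a PRY-SPRY gene and a MuRF gene. Trim35 was lower in animal 1, at a log2 ratio of -0.65 (95% counting interval -0.71 to -0.59), and 6.69% of all genes were further apart. Trim55 followed at -0.53 (-0.61 to -0.44), with 9.79% of genes further apart. Its paralogues moved less: Trim54 stood at -0.14 (-0.19 to -0.09) and Trim63 at 0.03 (-0.01 to 0.08), a value whose sign turns with spike-in scaling (-0.17). Of the other members named for muscle, Trim72 stood at -0.12 (-0.17 to -0.07) and Trim32 at -0.11 (-0.31 to 0.08). Trim35, Trim55 and Trim54 were lower in animal 1 under each of the 4 scalings tried. The slow fibre markers were lower in animal 1 as well, with a median log2 ratio of -2.54 over 7 genes, and fast fibre markers had a median of -0.05. Tendon markers were lower in animal 1 too, 4 of 4 with a median of -1.05 and sums of 63.1 and 134 TPM, as were the 4 erythroid markers with enough reads, with a median of -0.43. The part of these fibres and cells in the values of Trim35 and Trim55 was not tested.

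In the other direction, Trim68 was higher in animal 1 at 0.54 (0.19 to 0.90; 166 and 112 reads), then Trim37 at 0.47 (0.21 to 0.73; 298 and 212 reads) and Trim12c at 0.35 (0.01 to 0.70; 165 and 127 reads). Each had under 300 reads a library, so the intervals are wide. Trim41 at 0.19 and Trim3 at 0.22 also had intervals without 0, but Trim41 was at -0.0045 with spike-in scaling. The 3 members of the chromosome 7 class with enough reads (Trim68, Trim12c and Trim21) were all higher in animal 1 under each scaling, with a median of 0.35. For Trim21, at 0.29 (-0.12 to 0.71; 111 and 89 reads), the interval held 0. Of all genes with enough reads, 45.2% were higher in animal 1 with TMM, 68.1% with library size alone and 19.4% with spike-in scaling. A change of scaling moves every ratio by the same amount, so the scalings are not separate evidence.

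Listed interferon-response genes were higher in animal 1 as well. Of the 20 listed, 10 were detected and 9 had enough reads, and all 9 were higher in animal 1 (7 of 9 with spike-in scaling), with a median log2 ratio of 0.41 and none 2-fold apart. Among the most abundant of the listed genes were Ifi27 with 33.6 and 21.9 TPM and the antiviral tether Bst2 with 4.06 and 2.96 TPM. Bst2 had too few reads to be among the 9, and its counting interval held 0 (-0.08 to 0.78). Macrophage markers were also higher in animal 1, 5 of 5 tested, with a median of 0.58 and sums of 51.5 and 32.3 TPM. Adipocyte markers (7 of 7, median 3.88) and Schwann cell markers (5 of 5 tested, median 3.13) were higher in animal 1 by more. Fibroblast markers were split, 3 higher in animal 1 and 2 in animal 2. Whether any of these cells carry the chromosome 7 members' difference was not tested.

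The atrophy programme to which Trim63 belongs did not move as 1 block. All 20 of its listed genes were detected, with a median log2 ratio of -0.07 and none 2-fold apart. Eda2r, a receptor of the TNF family with 3.91 and 1.86 TPM, came closest at 0.98 and passed 2-fold with library size alone. Of the 20, 5 were higher in animal 1 and 15 in animal 2, while 45.2% of all genes with enough reads were higher in animal 1. With library size alone, 14 of the listed genes were higher in animal 1 and 6 in animal 2, beside 68.1% of all genes. The most abundant were the ubiquitin-conjugating enzyme Ube2b with 202 and 201 TPM, the ligase Nedd4 with 103 and 97.9 TPM, and the muscle F-box gene Fbxo40 with 89.4 and 92.5 TPM. Fbxo32 (atrogin-1), the gene most often measured beside Trim63, had 77.6 and 47.4 TPM, a log2 ratio of 0.60, and Foxo1, a transcription factor that drives both, 8.68 and 13.1 TPM, a ratio of -0.71. Trim63 at 0.03 lay between them. Eda2r, Fbxo32 and Foxo1 are named here after their values were seen.

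Transcript shares show which product of each gene was present. By the mean of the animals in the RSEM-layout tables, the most abundant transcript was annotated as protein-coding in each of the 30 detected members. In animal 1 alone a processed transcript led Trim26, with 25.4%, and in the kallisto-layout table a processed transcript led Trim47, with 30.8%. Protein-coding transcripts held 91.6 ± 0.397% of the family's TPM. Retained-intron transcripts held 4.81 ± 0.683% and processed transcripts 3.26 ± 0.225%. Trim54-201 took 99.3 ± 0.742% of its gene, Trim72-202 99.3 ± 0.948%, Trim35-201 95.7 ± 2.14% and Trim63-202 94.0 ± 0.502%, so nearly all of each gene's TPM lay on 1 mRNA. In Trim63, a retained-intron transcript of 1152 bases, Trim63-203, held a further 5.05%.

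In the mean of the RSEM-layout tables, Trim28 was the detected member whose coding transcripts held under 50% of the TPM. Coding transcripts also held under 50% for Trim12a in animal 2 (48.5%) and for Trim47 in the kallisto-layout table (42.0%). Trim28-201 (3245 bases) had 34.5% of the gene's TPM in animal 1 and 36.9% in animal 2, although 73.4% and 75.4% of the gene's reads were assigned to it. The rest lay on 9 non-coding transcripts of 562 to 1004 bases, led by the retained-intron Trim28-203 with 32.4% and a processed transcript of 851 bases with 20.9%. A short transcript turns few reads into much TPM, and the same holds for Trim55-202, a processed transcript of 506 bases that took 21.4% of TPM from 3.93% and 4.55% of the reads. A gene-level TPM of Trim28 or Trim55 thus rests in part on short transcripts.

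**Figure D3:**
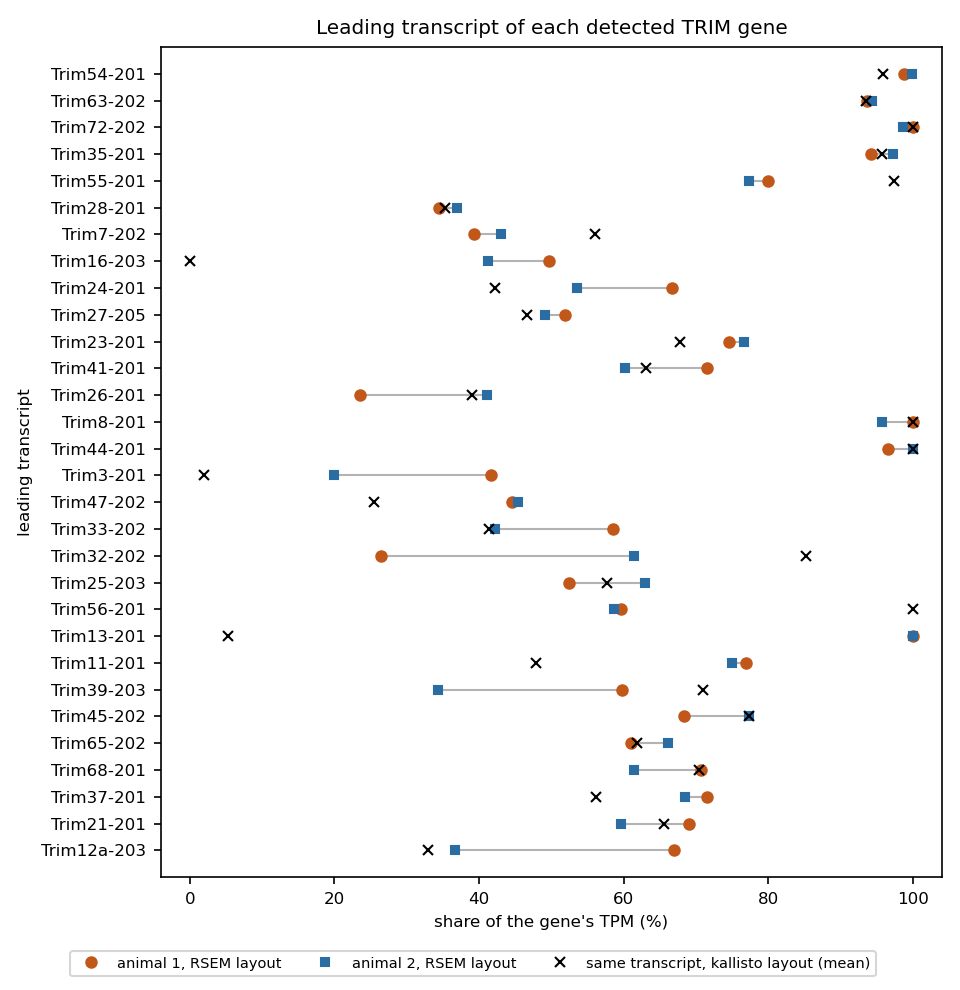
Share of the gene's TPM (x axis, %) held by the leading transcript of each detected TRIM gene, with a circle for animal 1 and a square for animal 2 in the RSEM-layout tables and a cross for the mean in the kallisto-layout table. The first 4 genes lie above 93% in every estimate, whereas Trim16-203, Trim3-201 and Trim13-201 lie near 0 to 6% in the kallisto-layout table.

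The authors deposited a second quantification of the same libraries, and it named the same leading transcript for 14 of the 15 highest members and for 26 of all 30 detected. Trim16 was split between Trim16-203 at 45.4 ± 5.97% and Trim16-201 at 35.1 ± 0.297% in the RSEM-layout tables, but in the kallisto-layout table Trim16-201 held 61.4% and Trim16-203 nearly nothing. Trim3, Trim47 and Trim13 also changed leader, and for Trim13 the tables gave opposite answers, Trim13-201 with 100% against Trim13-202 with 94.7%. For Trim32 the leading Trim32-202 had 26.5% in animal 1 and 61.4% in animal 2, a swap with Trim32-201 (55.4% and 30.6%), which is almost the same length. The kallisto-layout table put 86.5% and 83.9% on Trim32-202. The tables thus give different shares for these similar transcripts.

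Gene levels differed less between the tables once their offset was taken out. The kallisto-layout values were higher by a median of 0.55 on the log2 scale over genes. Relative to that, the members furthest up were Trim47 (0.54), Trim12a (0.38), Trim33 (0.29), Trim24 (0.22) and Trim37 (0.19). Those furthest down were Trim56 (-0.70), Trim55 (-0.41), Trim32 (-0.27), Trim13 (-0.25) and Trim7 (-0.25). Trim47 and Trim65 share 225 exon bases on the same strand. The posterior SD of the count was small for Trim47, at 0.78 and 0.82 on 374 and 326 reads. Relative to the offset, Trim65 stood at -0.02. In the kallisto-layout table a processed transcript of 519 bases held 30.8% of Trim47, and in the RSEM-layout tables it had no read. The cause of the shift of Trim47 was not tested. Trim52, with no read in the RSEM-layout tables, had 0.65 and 0.25 TPM in the other. All of it lay on Trim52-202, a processed transcript of 584 bases, and none on the coding Trim52-201. The limit for its 0 reads (0.0461 and 0.0433 TPM) uses an effective length of 1730.5 bases. It is therefore not a limit for that short transcript.

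Trim2 shows how length estimates enter TPM. Trim2, an NHL-repeat ligase best known in neurons, had 226 and 188 reads, with a log2 count ratio of 0.24 (-0.04 to 0.53) that does not leave 0. Its TPM, however, was 1.80 and 0.72, a log2 ratio of 1.21. In animal 1, 14.4 reads were placed on transcripts shorter than 1000 bases, which then held 54.5% of the gene's TPM, and in animal 2 none were. The effective length of the gene was 3335 bases in animal 1 and 6535 bases in animal 2. For the other 30 members, the TPM ratio minus the count ratio lay between -0.11 and 0.28, against 0.97 for Trim2.

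**Figure D4:**
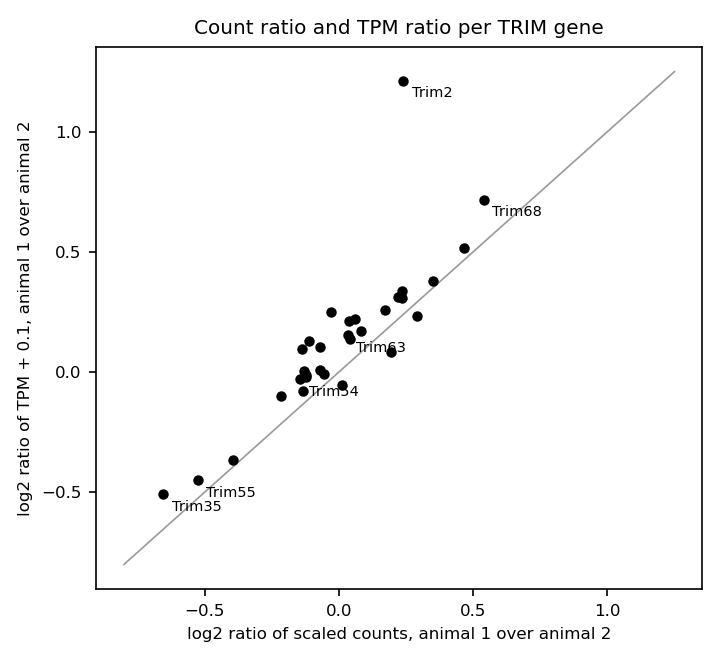
log2 ratio of TPM + 0.1 (y axis) against log2 ratio of TMM-scaled counts (x axis), both animal 1 over animal 2, for the 31 TRIM genes with a mean of 100 or more counts; the line marks equal values. Trim2 stands 0.97 above the line, and the other members lie between -0.11 and 0.28 of it.

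Read sharing limited few of the abundant members. The deposited posterior SD of the count was 0 in both libraries for 52 of 68 members, and the 16 with a value above 0 included genes of the chromosome 7 class, the Trim43 genes, Trim16, Trim17, Trim47 and Trim65. Exons of another gene overlapped those of 22 members, 8 of them detected. Trim17 shares 708 exon bases with Hist3h2a on the same strand. Its posterior SD was 2.01 and 2.68 on 8.85 and 16.85 reads, so its low value is uncertain. Trim14 (0.54 and 0.42 TPM) shares 1356 with Nans on the opposite strand, with a posterior SD of 0 in both libraries. It had 9 and 7 reads, all placed on processed transcripts, so its low value is uncertain too.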

How the data were processed

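RNA from gastrocnemius of 2 animals (300 ng each, ERCC spike-ins of a stranded, rRNA-reduced profile, per the labels) gave 1 library each. Per the file headers, the authors deposited a gene and a transcript table in RSEM's column layout with expected counts, TPM, posterior means, transcript shares in percent, and posterior SD and interval bounds of the count, which are signal-like values without a fixed scale. They also deposited a transcript table in kallisto's layout, with estimated counts and TPM, which was summed per gene. The labels give mm10; the identifiers match GENCODE M21. Neither labels nor headers state the tools, the strand setting or any filter. B6 and CAST alleles were not separated.

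The labels name separate mice under a single donor record, so spreads measure these samples only. Counts were rounded and scaled by TMM (edgeR 4.0.16), with a prior count of 0.5; DESeq2 1.42.0 size factors, library size and spike-in totals were alternatives. The log2 ratios have exact binomial 95% counting intervals, which cover counting error only, and the scaling was tested on simulated data. No p-value is given: there is 1 group and 1 library per animal. Motifs were searched in RefSeq promoters with Python 3.11.15. Named are the MuRF genes, Trim72, Trim32, the 15 highest members, any member 2-fold apart, up to 5 members in each direction between the tables, and the 3 highest genes of each comparison list, of which 1 is not reported here; the other members are given by class. Members and lists were chosen with earlier results of these data known.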

Additional observations from a re-analysis of the deposited data

How the results depend on the processing

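With at least 3 expected counts in both animals in place of 1 TPM, 48 members were detected, against 30. In the kallisto-layout table the family held 0.108% of protein-coding TPM, and the MuRF share of the family was 45.7%; with the posterior mean TPM that share was 47.8%. The members' median log2 ratio was 0.0286 with DESeq2 size factors, 0.12 with library size alone, -0.19 with spike-in totals, 0.0232 at a mean count of 50 or more and 0.0414 without a filter. Over all genes the median was 0.09 with library size alone and -0.22 with spike-in totals. Without a filter, 7 of 58 members were 2-fold apart, beside 26.8% of all genes with any read; each had at most 3.39 reads in 1 animal and 0 in the other. Trim41 changed sign with spike-in totals (-0.0045). The kallisto-layout table moved the TPM of 30 of 32 members beyond their SD, with its median offset of 0.55 on the log2 scale left in. Its 31 log2 ratios were first centred on the TMM median over all genes with enough reads. Each then stayed inside its counting interval. Both layouts come from the same libraries, so this is not separate evidence. The paralogue ratios kept the sign of their mean and their side of 2 SD under each pseudocount and table, but Trim63 over Trim54 took 1 sign in both animals in the kallisto-layout table. The cause of these shifts was not tested. No paired analysis was possible because there is 1 group. Ratios between the animals need both libraries, so none could be recomputed without a replicate. For the 37 members with a mean under 100 counts, depth limits the ratios, and none is read as a difference.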

Other observations

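Proteins of the TRIM type also carry names without the Trim symbol; these were looked up after the members' values had been seen. Cmya5 (myospryn), a large muscle protein with a TRIM-like C-terminal end that lacks the RING finger, had 436 TPM in animal 1 and 391 TPM in animal 2, above every member. Fsd2, a related gene with fibronectin and SPRY domains, had 100.3 and 112 TPM, and its log2 count ratio was -0.27. The COS box genes Mid1 and Mid2 had 2.32 and 1.76 TPM and 3.30 and 3.36 TPM. Trim genes of the COS box, fibronectin and SPRY class were not detected here, whereas the MuRF genes, also classed with a COS box, were. Pml, which builds nuclear bodies and responds to interferon, had 2.23 and 1.48 TPM, with a log2 ratio of 0.32 (95% counting interval 0.06 to 0.58). Mefv, the pyrin gene, had 1 read in animal 1 and 0 in animal 2. The pseudogene Trim30e-ps1, left out by the rule on protein-coding transcripts, had 2 reads in animal 1 and 0 in animal 2.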
